A study of Mus musculus with 6 samples.

Results

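A set of 1616 open-chromatin regions between genes had a peak in all 3 retinal libraries of mice with a mutated Atoh7 shadow enhancer and in none of the 3 wild-type libraries. They were selected on the measured peaks themselves: the peaks of the 6 per-library lists on chromosomes 1 to 19 were joined where they overlapped by at least 1 bp, and a region was kept when its midpoint lay outside protein-coding genes and more than 1 kb from a gene end in the mouse build GRCm38. The 1616 members are 10.5% of the 15388 merged regions between genes, out of 45562 merged regions in all. Because peak presence chose them, their presence in one genotype and absence in the other is a description and was not tested. Below, "SE/SE-only" is used for this pattern and "shared" for a peak in all 6 libraries.

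The libraries were made with ATAC-seq, an assay that uses a transposase, Tn5, to cut accessible DNA and tag it for sequencing, from E14.5 (embryonic day) retinas of the mouse strain C57BL/6. The 3 wild-type libraries came from Atoh7 +/+ animals and the 3 SE/SE libraries from animals carrying the mutated shadow enhancer on both alleles (Atoh7 SE/SE). Each library came from 1 animal's pair of retinas, all cells of the dissected tissue together, with about 100000 cells transposed and the equivalent of 50000 amplified. Wild-type libraries received 17, 18 and 19 PCR cycles and SE/SE libraries 15, 16 and 16, and no label says which library had which number, so amplification and genotype cannot be told apart. In such bulk tissue, a change in the share of a cell type and a change of accessibility within cells also cannot be told apart.

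The product of Atoh7 is a transcription factor of the basic helix-loop-helix family, needed for the birth of retinal ganglion cells, the neurons that send the optic nerve to the brain. Such factors bind E-boxes, short elements with the letters CANNTG. Accessible regions far from genes often contain enhancers, stretches bound by transcription factors that can act on a gene over a distance, and a shadow enhancer is an extra element with an activity that overlaps that of a primary one. Accessibility alone does not say which gene a region acts on, so the nearest gene is given below only as a position.

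No sequence of whole members was read, but RefSeq (GRCm38.p6) gives the DNA around gene starts, 250 bases before to 50 after. Of the 1616 members, 26 (1.61%) overlapped such a start window, against 3.31% of all regions between genes and 5.34% of the shared ones. A wider region meets a window more readily, and the median width was 187 bp for members and 409 bp for shared regions. The part of width in these shares was not tested. All 26 genes with such a window were long non-coding RNA genes, after a rule that had removed the surroundings of protein-coding genes. The stretches of 4 windows that lie inside a member are printed 5′ to 3′ on the strand of the gene, with E-boxes in capitals. The first 2 belong to the members with the highest ranks among the 26, and the other 2 to the host gene of a miRNA cluster and to a start near Kdr. Gene A230103O09Rik is read on the plus strand at chr13:39824022-39824228, Gm36495 on the minus strand at chr12:16850886-16851185, Mir100hg on the plus strand at chr9:41474701-41474884 and Gm32727 on the plus strand at chr5:76006526-76006698.
A230103O09Rik: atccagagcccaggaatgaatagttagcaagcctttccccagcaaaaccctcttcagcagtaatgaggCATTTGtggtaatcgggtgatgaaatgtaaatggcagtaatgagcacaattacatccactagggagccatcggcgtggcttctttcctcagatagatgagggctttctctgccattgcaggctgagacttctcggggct
Gm36495: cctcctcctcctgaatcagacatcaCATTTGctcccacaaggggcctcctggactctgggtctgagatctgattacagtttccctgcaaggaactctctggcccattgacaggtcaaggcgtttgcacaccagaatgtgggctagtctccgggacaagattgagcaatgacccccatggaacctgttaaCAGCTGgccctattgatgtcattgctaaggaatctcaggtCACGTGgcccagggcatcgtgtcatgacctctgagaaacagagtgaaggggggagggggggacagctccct
Mir100hg: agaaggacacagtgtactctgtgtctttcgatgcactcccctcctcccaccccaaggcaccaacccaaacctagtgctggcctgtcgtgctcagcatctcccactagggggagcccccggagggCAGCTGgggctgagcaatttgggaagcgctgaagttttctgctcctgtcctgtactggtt
Gm32727: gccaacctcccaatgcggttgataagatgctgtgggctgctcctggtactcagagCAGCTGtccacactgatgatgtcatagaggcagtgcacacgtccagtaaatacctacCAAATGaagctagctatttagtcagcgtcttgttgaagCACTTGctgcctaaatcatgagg

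The 4 stretches hold 1, 3, 1 and 3 E-boxes, with CAGCTG, the form bound by many proneural factors, in Gm36495, Mir100hg and Gm32727. In all, 16 motifs were searched, without a test. Over the whole 300 bases of the 27 windows that a member touched (Gm32727 has 2), an E-box stood in 22 (81.5%), against 72.3% of all 32851 start windows and 78.4% of those of long non-coding RNA genes. CAGCTG stood in 10 of 27 (37.0%), against 16.3% and 17.7%, and the Zic and Gli type letters CCTGCTG in 8 (29.6%), against 10.5% and 10.5%. CATATG or CAGATG, the forms linked to Atoh7 and Neurog2, stood in 6 (22.2%), against 20.3% and 25.9%, which is close to both backgrounds. Letters of the Ets type, CCGGAAG, were in 0 of 27 windows, against 8.86% and 3.89%, and of the Sp and Klf type, GGGCGGG, in 7.41%, against 25.6% and 10.3%. The other shares lay on both sides of the backgrounds, given again for all windows and then for long non-coding RNA genes. The homeodomain letters TAATTA stood in 14.8% (5.29% and 6.68%), the CTCF type AGGNGGC in 40.7% (29.4% and 21.5%), the Gata type AGATAA in 22.2% (11.2% and 14.0%) and the AP-1 type TGANTCA in 14.8% (7.81% and 9.31%). The Otx and Crx type GGATTA stood in 3.70% (7.06% and 8.23%), the Sox type ACAAAG or ACAATG in 37.0% (28.6% and 33.9%) and the Nfi type TTGGCA in 14.8% (14.1% and 16.0%). The Ebf type CCCNNGGG stood in 11.1% (13.7% and 10.1%), the Meis and Pbx type TGACAG in 18.5% (19.2% and 20.1%), and CG in all 27 windows (94.6% and 93.1%). Both strands were read, CAGCTG also counts as an E-box, and a match of letters is not a bound site. Both backgrounds hold start windows with and without a peak, so they are not matched for accessibility. The 2 windows of Gm32727 overlap, and the same CAGCTG is counted in each. With 27 windows of 1616 members, these shares describe only the few members that touch a start. The median GC content of the 27 windows was 50.7%, below the 52.7% of all windows and above the 48.3% of windows of long non-coding RNA genes.

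A look-up of miRNA genes, chosen after the data were seen, found 22 members (1.36%) with a hairpin within 10 kb, against 1.29% of regions between genes and 1.68% of shared regions. One member, chr8:84208763-84208948, contained the whole Mir24-2 hairpin (chr8:84208815-84208921, plus strand) and lay 5 bp from the Mir27a hairpin and 171 bp from that of Mir23a. The Mir24-2 hairpin is shown because it is the sequence that makes up most of this member, with the mature strands in capitals, followed by the mature miRNAs of the cluster with the seed, bases 2 to 8, in capitals.
Mir24-2: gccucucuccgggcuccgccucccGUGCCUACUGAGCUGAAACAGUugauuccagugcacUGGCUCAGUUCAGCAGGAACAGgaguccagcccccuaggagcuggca
mmu-miR-24-3p: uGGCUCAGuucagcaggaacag
mmu-miR-27a-3p: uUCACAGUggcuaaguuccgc
mmu-miR-23a-3p: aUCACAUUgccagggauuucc

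The seeds of miR-27a and miR-23a have 6 of 7 letters in common, position by position, and that of miR-24 has 0 in common with either. The member over Mir24-2 stood at percentile 9.56 of the signal values in SE/SE 1, 15.4 in SE/SE 2 and 26.1 in SE/SE 3. Its peaks were thus in the lower part of each list. A further 3 members lay at the cluster of Mir183, Mir96 and Mir182 on chromosome 6, whose hairpins are read on the minus strand and whose miRNAs are abundant in photoreceptors and other sensory cells. Their mature forms are printed because the seeds are near-alike: miR-96 has 6 of 7 seed letters in common with miR-183 and 6 of 7 with miR-182.
mmu-miR-183-5p: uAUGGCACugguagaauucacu
mmu-miR-96-5p: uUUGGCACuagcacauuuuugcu
mmu-miR-182-5p: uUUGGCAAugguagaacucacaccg

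The closest of these 3 members, chr6:30169239-30169431, ended 15 bp from the Mir96 hairpin and 237 bp from that of Mir183, with percentiles of 13.5, 27.1 and 20.7 in SE/SE 1, 2 and 3. The second, chr6:30167287-30167483, lay between Mir182 and Mir96 and stood at 16.2, 28.5 and 2.00. The third, chr6:30174760-30175214, was 5023 bp from Mir183 and stood at 2.13, 19.5 and 34.9. No shared region between genes stood within the 7928 bp that hold the 3 members. Other miRNAs within 10 kb of a member included Mir9-1, Mir7-1, Mir29b-2, Mir29c and Mirlet7i. Whether any of these miRNAs changed was not measured.

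Members were few among all peaks and lay low in the lists. A percentile is the share of a library's own peaks with a lower or equal signal value, the authors' deposited measure in column 7, which carries no stated scaling between libraries and is used only for ranks within a list. Since the lists differ in length, a difference in percentile between libraries shows no change. In SE/SE 1 the members ran from percentile 0.0307 to 47.9 with a median of 13.3. In SE/SE 2 the lowest was 0.0772, the median 20.7 and the highest 53.8, and in SE/SE 3 the values were 0.0655, 23.9 and 57.3. The mean of the 3 medians was 19.3 ± 5.47 (SD, n = 3 libraries). Shared regions between genes had medians of 56.0, 59.3 and 61.3 in the same lists, so the typical shared region ranked more than 30 points above the typical member in every SE/SE library. Averaged over the 3 libraries, 1212 members (75%) stood under percentile 25, 177 (11.0%) under 10, 21 over 40 and 1 over 50.

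**Figure D1:**
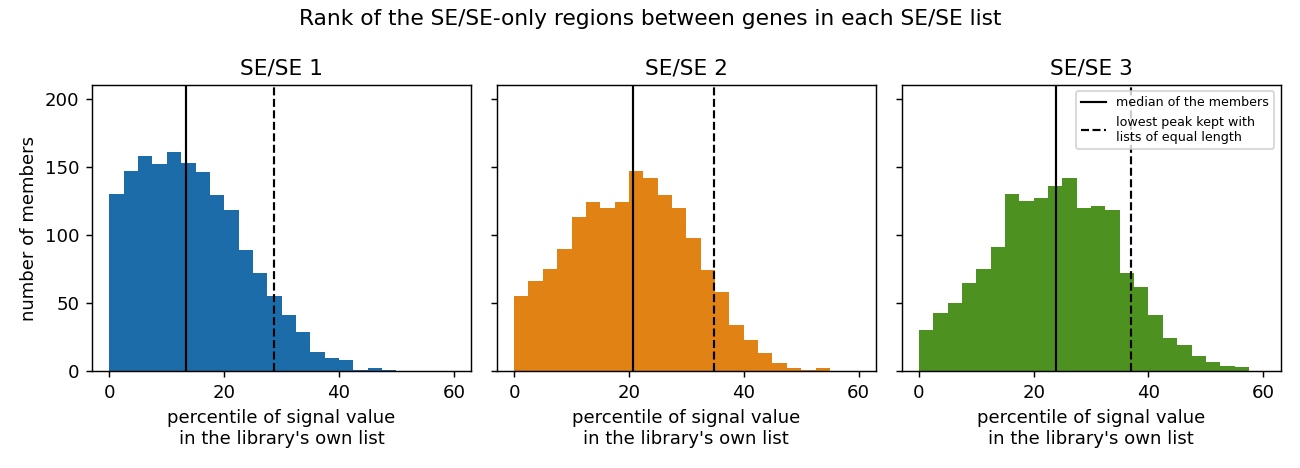
Number of members (vertical axis) by the percentile of their signal value in the list of SE/SE 1, SE/SE 2 and SE/SE 3 (horizontal axes). Solid lines mark the members' medians of 13.3, 20.7 and 23.9, and dashed lines the percentiles of 28.7, 34.8 and 37.0 below which peaks are dropped when all lists are shortened to 27873 peaks: most members lie left of the dashed line in each library.

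Members were also narrow, with a median width of 187 bp (96 to 630), while shared regions had a median of 409 bp. In each of the 6 lists the deposited signal value and the peak width had a Spearman coefficient over peaks of 0.933 to 0.940, so rank and width are not separate observations. The median deposited −log10 p of the members was 4.20, 4.28 and 4.37 in SE/SE 1 to 3, against 5.73, 5.88 and 5.98 for shared regions. The highest points of the peaks of the 3 SE/SE libraries fell within 50 bp of each other in 1206 members (74.6%) and in 81.1% of shared regions. A narrow region leaves less room for such points to lie apart, so these shares are not directly comparable. Across the 1616 members the percentiles of 2 SE/SE lists had Spearman coefficients of 0.427 (SE/SE 1 and 2), 0.393 (1 and 3) and 0.453 (2 and 3), a description over regions that share width and position and are not replicates.

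The share of SE/SE-only regions fell steeply with rank. Among regions between genes with a peak in all 3 SE/SE libraries, those of a mean percentile up to 10 lacked a wild-type peak in 177 of 236 cases (75%, 95% Wilson interval 69.1% to 80.1%). From 10 to 20 the share was 62.2% of 1147, from 20 to 30 it was 33.2% of 1663, and from 30 to 40 it was 8.94% of 1712. From 40 to 50 only 20 of 1654 (1.21%) lacked a wild-type peak, and above 50 only 1 of 4357 did (0.0230%, interval 0.00405% to 0.130%). The intervals cover counting error over regions only. Regions inside genes gave shares of 81.2%, 60.0%, 35.0%, 10.6%, 1.95% and 0.0180% in the same steps. In both places the share fell at every step.

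**Figure D2:**
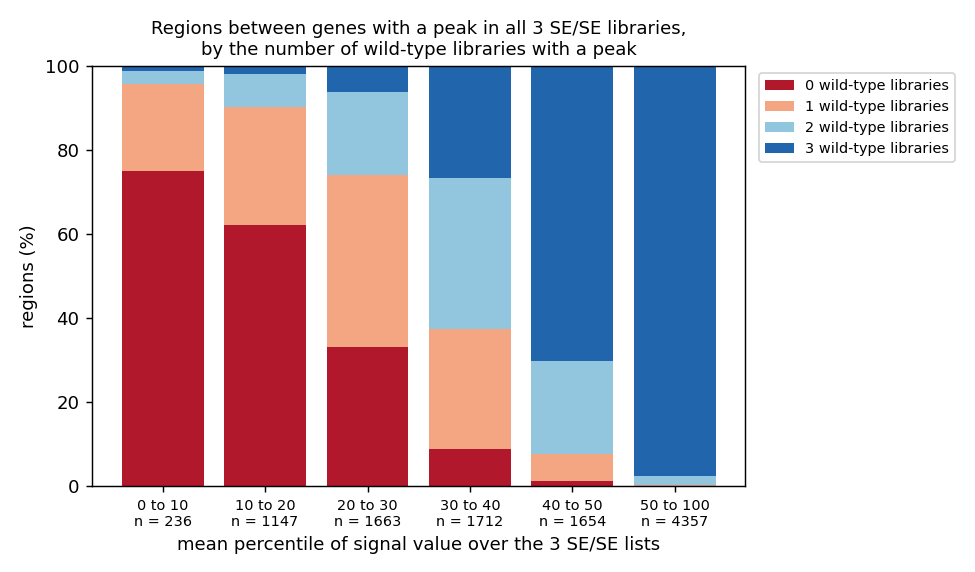
Regions between genes with a peak in all 3 SE/SE libraries, grouped by mean percentile of the signal value (horizontal axis, with the number of regions) and coloured by the number of wild-type libraries with a peak (vertical axis, percent of regions). The red segment, the SE/SE-only members, shrinks from 75% in the lowest group to 0.0230% in the highest.

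The lists differed in length before any region was chosen. Wild-type libraries had 31340, 34797 and 27873 peaks covering 13.6, 15.5 and 12.6 Mb, and SE/SE libraries 39115, 42722 and 44242 peaks covering 17.4, 19.5 and 19.95 Mb, so every SE/SE list was longer than every wild-type list. Read depth is unknown. The opposite pattern, a peak in all 3 wild-type and no SE/SE library, was found in 11 regions between genes (0.0715%). SE/SE-only regions were 1764 of the 16918 regions inside genes (10.4%, beside 10.5% between genes) and 364 of the 13256 within 1 kb of a gene end (2.75%), and they made up 3744 of all 45562 regions (8.22%). The part that list length, depth and PCR cycles play in these counts was not tested beyond the lists of equal length below.

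Single libraries set the size of the set. Of the 1648 regions between genes with a peak in all 3 SE/SE and just 1 wild-type library, that library was wild type 2 in 1320, wild type 1 in 286 and wild type 3 in 42. Of the 1605 with a peak in 2 SE/SE and no wild-type library, SE/SE 1 was the one without a peak in 1219. Leaving out wild type 2, the longest wild-type list, raised the count of SE/SE-only regions between genes from 1616 to 2937, and leaving out SE/SE 1, the shortest SE/SE list, raised it to 2838. With both left out it was 4394. Leaving out a library loosens the rule, so a rise was all but fixed in advance and only its size differs between libraries.

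When each list was shortened to its 27873 highest signal values, the length of the shortest list, 37 of the 1616 members (2.29%) were still SE/SE-only. The shortened lists had 173 SE/SE-only regions among 8985 between genes (1.93%) and 48 wild-type-only regions (0.534%), so the 37 are 21.4% of the 173. The other 136 had a wild-type peak in the full lists, in 1 library for 97 and in 2 for 39. Of the members, 1302 had no peak left in any shortened SE/SE list, 205 had 1, 72 had 2 and 37 had all 3. Members have no wild-type peak to begin with, so which of them stayed was decided by their ranks in the SE/SE lists. Shortened by −log10 p instead, the lists held 132 SE/SE-only regions and 19 of the members, of which 16 were among the 37. Below, "shortened lists" means those shortened by signal value.

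Every member overlapped a peak of both joint lists, which the authors named for a genotype and which hold 120772 peaks for SE/SE and 104991 for wild type. All 1616 members thus had a peak in the joint wild-type list, although none had one in a wild-type library of its own. So did all 5995 shared regions between genes and all 1764 SE/SE-only regions inside genes. The joint wild-type peaks over members had a median width of 405 bp (149 to 5399). A joint peak can thus reach beyond a member, and its rank need not be that of the member alone. The members' median percentile was 67.4 in the joint wild-type list and 74.1 in the joint SE/SE list, but the longer list gives a higher percentile at the same rank. Counted by rank from the top, 1233 members (76.3%) stood higher in the joint SE/SE list and 383 in that of wild type. Of shared regions, 43.0% stood higher in the SE/SE list. Because the lists differ in length and members were picked on the same animals' peaks, neither measure shows a change between genotypes. The rule that chose the members favoured a higher standing in the joint SE/SE list. Joint peaks rest on the same animals and are no further replicate.

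The member of the highest rank, near Kctd16 (an auxiliary subunit of GABA-B receptors), had percentiles of 45.1, 51.0 and 54.0 in SE/SE 1, 2 and 3 and lay 6310 bp from an end of the gene. It was the only member with a mean above 50. The region near Rad23b, a DNA repair gene, at chr4:55243520-55243998 stood at 32.3, 53.8 and 56.1 and lay 106283 bp before the gene's start. In that member SE/SE 1 was far below the other 2 libraries, and the same order was seen near Rnf144a (30.1, 47.3 and 57.3). The region near Nus1, by contrast, was lowest in SE/SE 2 (47.9, 37.3 and 49.4).

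A pair of the 12 highest members lay close to genes of retinal neurogenesis. The region chr10:130263239-130263536 lay 4765 bp after the end of Neurod4 (gene ID 11923), a basic helix-loop-helix gene of retinal neuron formation, with percentiles of 42.3, 38.3 and 49.7 in SE/SE 1, 2 and 3. In the joint lists it stood at 79.6 for SE/SE and 71.5 for wild type. The region chr9:74860530-74861007 lay 1153 bp before the start of Onecut1 (gene ID 15379), a homeobox gene of horizontal and ganglion cells, with percentiles of 39.5, 44.2 and 46.5. Its joint peak stood at 97.5 for SE/SE and 95.4 for wild type, far above that of the other 11, and a wild type 2 peak lay 572 bp away. The remaining 8 of the 12 were near Prdm2, Ly86, Nt5e, Serpinb8, Strap, 1700008P02Rik, Rnf144a and Nus1, at distances from 21742 to 863242 bp. All 12 remained SE/SE-only in the lists shortened by signal value, the measure that also picked them, and 5 of the 12 in those shortened by −log10 p.

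**Figure D3:**
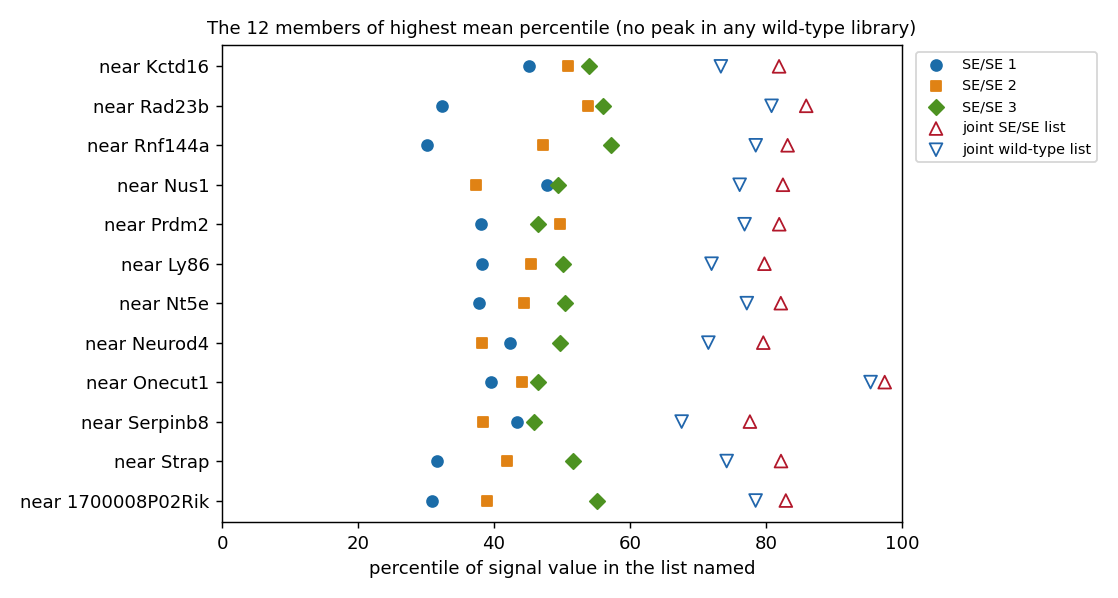
The 12 members with the highest mean percentile, named by their nearest gene (vertical axis), with the percentile of the signal value (horizontal axis) in SE/SE 1, 2 and 3 and in both joint lists; none has a peak in a wild-type library. The joint lists differ in length, so their percentiles are not comparable with each other. The joint peaks over the Onecut1 region have the highest joint values, 97.5 and 95.4, and can reach beyond the member.

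The other 25 of the 37 members that stayed in shortened lists had nearest genes of many kinds, and those described first were picked by gene. A region 4399 bp before the start of Slc32a1, the vesicular GABA transporter of inhibitory neurons, had percentiles of 37.1, 37.8 and 44.0. A region 209482 bp before the start of Prox1, a homeobox gene of horizontal cells and lens fibres, had 34.1, 42.0 and 45.0. Near Epha7, a guidance receptor, a region 775437 bp after the gene's end had 34.3, 38.3 and 46.0. Near Plxna1, a semaphorin receptor, a region 19147 bp from the gene had 34.1, 37.4 and 49.7. SE/SE 3 gave the highest percentile in each of these 4, but it is the longest list, where the same rank gives a higher percentile. By rank from the top, the Slc32a1 region stood highest in SE/SE 1 (24599, against 26587 in SE/SE 2 and 24764 in SE/SE 3). The regions near Prox1, Epha7 and Plxna1 stood highest in SE/SE 3 by rank too. Others stood near Ntn4, Tlx1, Tcf21, Dusp5, Cadm2, Marcks and Lmo7. Still others lay nearest to Acadsb, Kazald1, Ext2, Atp12a, Ckap2l, Maip1, Fggy and Slc23a4. No group of genes among the 25 was tested. The 37 had a median distance to a gene end of 48408 bp and a median width of 298 bp.

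Members lay at distances from protein-coding genes close to those of shared regions. Their distance to the nearest end of a protein-coding gene had a median of 35669.5 bp, from 1005 to 1867665 bp, and that of shared regions between genes a median of 34970 bp. From 1 to 5 kb lay 15.2% of members and 14.4% of shared regions, from 10 to 50 kb 32.3% and 31.9%, from 100 to 500 kb 23.3% and 23.4%, and beyond 500 kb 5.57% of both. Where RefSeq gave the strand of the nearest gene, 618 of 1255 members (49.2%) lay before its start, against 50.9% of shared regions. The midpoint lay in a long non-coding RNA gene for 338 members (20.9%) and for 22.5% of shared regions. No test was made, since regions are not replicates of a genotype.

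**Figure D4:**
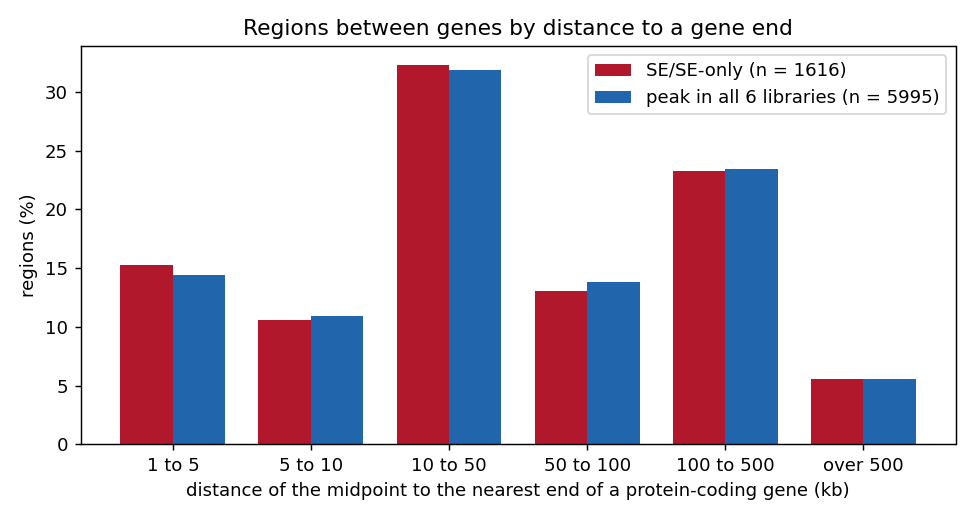
Percent of regions between genes (vertical axis) by distance of the midpoint to the nearest end of a protein-coding gene in kb (horizontal axis), for the 1616 SE/SE-only members and the 5995 shared regions. Paired bars are of near-equal height in each class, such as 32.3% and 31.9% from 10 to 50 kb.

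The members just past the limit of 1 kb lay 1005 bp from Grik5 (percentiles 10.2, 26.4 and 15.9) and 1020 bp from Ccdc63 (10.8, 3.71 and 13.8). Just short of it, and so no member, was an SE/SE-only region 982 bp from Zdhhc17 (4.41, 4.31 and 23.4). At the far end, a member lay 1867665 bp from Pik3c3 and one 1792132 bp before the start of Tenm3, a teneurin of synaptic partner choice, with percentiles of 7.41, 3.80 and 17.1. Further ones lay 1756934 bp from Celf4 and 1581237 and 1543442 bp before the start of Cdh9, a cadherin of retinal bipolar cells.

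Most members stood alone. The median distance from a member to the next one was 352358 bp, and 287 (17.8%) had another within 50 kb. A shared region in any place, also inside genes or near their ends, lay nearer, at a median of 26897.5 bp. Of the members, 67.0% had one within 50 kb. Shared regions outnumber members, with 5995 between genes alone, so these distances are not comparable with those between members. The median gap to the nearest wild-type peak of any library was 14787.5 bp, and 214 members (13.2%) had one within 1 kb. The closest was 49 bp from a member near Fzd7, a Wnt receptor, followed by 102 bp near Olig2 and 103 bp near Tpt1. By chromosome, members made up 8.25% of the regions between genes on chromosome 12, the lowest share, and 12.8% on chromosome 10, the highest.

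The longest run of members within 50 kb of each other held 6 of the 9 regions between genes in 81859 bp on chromosome 16, chr16:91141058-91222916, with 0 shared regions between genes in it. Of the 6, 5 lay nearest to 4932438H23Rik and 1 lay 2786 bp before the start of Olig2, a basic helix-loop-helix gene of progenitors that make neurons and, later, glia. The Olig2 member had low percentiles of 5.63, 0.875 and 16.3, and the highest of the run stood at 19.0, 29.7 and 33.6. Runs of 4 lay near Top1, Mboat1, Camk1g and between Kazald1, Pdzd7 and Tlx1. Near Otx2, a homeobox gene of photoreceptor and bipolar cell fate, 3 members lay within 64705 bp at chr14:48673706-48738410 with no other region between genes. Of these, the one 41898 bp before the Otx2 start had percentiles of 10.6, 19.7 and 28.6 and the one 70686 bp before it 10.3, 18.9 and 24.9. Neither remained SE/SE-only in shortened lists.

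The members lay nearest to 1340 distinct protein-coding genes, of the 5744 nearest to any region between genes, and 1131 of the 1340 had 1 member. Nectin1, a cell adhesion gene, had 6 members of its 8 regions between genes, of which 1 was shared. They lay from 1295 to 115807 bp from the gene with mean percentiles from 18.2 to 28.1. Zfp608, a zinc finger gene, had 6 of 38. Pou3f3, a POU homeobox gene of neural cells, had 5 of 20, with mean percentiles from 10.3 to 31.0, and 4932438H23Rik had 5 of 8. Marcks, Tmem182, Fign, Pik3c3, Slc4a3 and Spry2 had 4 each, of 10 to 21 regions, and 5 more genes also had 4.

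No member lay nearest to Atoh7 itself. There, 2 of the 11 wild-type-only regions between genes were found, chr10:63089257-63089634 with percentiles of 62.6, 62.6 and 52.3 in wild type 1, 2 and 3 and chr10:63090131-63090667 with 47.8, 53.3 and 30.6. These 2 alone of the 11 overlapped no joint SE/SE peak, and both stood at 94.4 in the joint wild-type list. Where the mutated shadow enhancer lies relative to them was not examined. A region 1401 bp from an end of Atoh7 was found in all 3 SE/SE libraries and in 1 wild-type library, so it missed the rule by 1 library. The 11 also held a region near Cyp8b1 (43.8, 51.0 and 68.0), while the other 8 had mean percentiles from 9.35 to 24.4.

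To show which kinds of genes lay nearest, 14 lists with 375 genes of retinal and other cell types and processes were used. A nearest gene names no cell type, and peaks give no expression, so the tissue label could not be checked by marker levels. In all, 128 members (7.92%) lay nearest to a listed gene, as did 8.14% of regions between genes and 8.77% of shared ones. Using all genes with an end within 100 kb, a listed gene was near 7.18% of members, 6.86% of regions between genes and 7.26% of shared ones. The share of listed genes was thus close to the background.

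Of the 186 regions between genes nearest to genes of the retinal ganglion cell list, 15 (8.06%) were members, below the 10.5% over all regions between genes. Barhl2 and Sox11 had more than 1 member, and the highest was 83291 bp after the end of Slc17a6, the vesicular glutamate transporter of ganglion cells, with percentiles of 22.5, 41.8 and 24.5. Near Irx3, a member 3869 bp before the start had 18.5, 13.9 and 45.6, and near Elavl2 one had 24.0, 23.1 and 24.8. The 23 members of the progenitor list were 7.57% of its 304 regions, with the highest near Id4 (23.3, 28.2 and 38.4), an inhibitor of basic helix-loop-helix factors. None of the 15 or 23 remained SE/SE-only in shortened lists, where 2.29% of all members did, so with so few members this sets neither list apart. Shared regions numbered 78 for the ganglion cell list and 161 for the progenitor list.

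The neurogenic transition list had 12 members of 86 regions (14.0%). Besides Neurod4 and Onecut1, these included a region 1070 bp from Bhlhe22, a basic helix-loop-helix gene of amacrine and bipolar subtypes, with percentiles of 12.5, 41.8 and 48.0. The amacrine and horizontal list had 13 of 95 (13.7%), and its 3 highest, near Onecut1, Prox1 and Slc32a1, all remained in shortened lists, as their ranks decided. The photoreceptor and cone list had 6 of 30 (20%), with 1 near Neurod1 (36.3, 42.5 and 21.1) and 3 near Otx2, and 0 of the 6 remained. The bipolar and Muller glia list had 6 of 50 (12%), led by regions near Slc1a3 (36.5, 38.7 and 30.4) and Kcnj10 (41.8, 33.9 and 26.7), a glutamate transporter and a potassium channel of Muller glia. In both of these SE/SE 3 had the lowest percentile.

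Lists of other processes and cell types spread widely. Axon guidance genes had 20 members of 144 regions (13.9%), among them a region near Unc5d, a netrin receptor (23.0, 37.4 and 50.8), and neuronal adhesion and synapse genes 18 of 219 (8.22%), led by Cadm2 (30.5, 36.4 and 44.6). Cell cycle genes had 4 of 48 (8.33%). Among cells outside the neural retina, the microglia and blood list had 7 of 32 (21.9%), with a region near Runx1 (31.5, 26.1 and 36.5) and 3 near Ptprc. The lens list had 7 of 45 (15.6%), the mesenchyme and optic stalk list 8 of 61 (13.1%), the endothelial list 2 of 35 (5.71%) and the pigment epithelium and ciliary margin list 1 of 31 (3.23%), the last near Mitf (34.6, 34.0 and 32.4). The shares thus ran from 3.23% to 21.9% on both sides of 10.5%, with the extremes in lists of few regions, and no list was tested. The part of other cell types in the members was not tested.

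**Figure D5:**
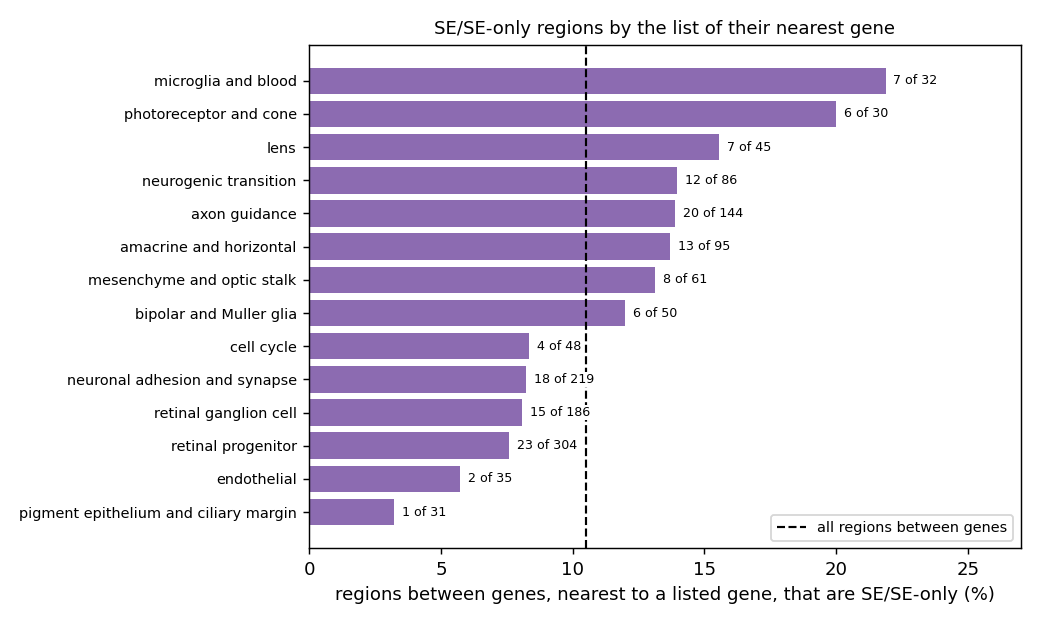
Percent of the regions between genes nearest to a listed gene that are SE/SE-only (horizontal axis) for the 14 gene lists (vertical axis), with the counts beside each bar. The dashed line is the 10.5% over all regions between genes; the bars run from 3.23% (1 of 31) to 21.9% (7 of 32).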

How the data were processed

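The 6 per-library and 2 joint peak lists are in narrowPeak form. Genrich 0.5, BWA, cutadapt, limma, bedtools 2.27.0 and the build GRCm38 (mm10) stand, without roles, in the submitters' processing notes. The authors deposited for each peak a signal value (column 7), a score and −log10 p (column 8). No read counts were analysed, so depth is unknown. The deposited signal value was used for ranks inside a list only, and the score was not used. Trimming, Tn5 shift and duplicate handling are not given in the sources used here.

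Peaks sharing 1 bp were merged with Python 3.11.15, numpy 2.4.6 and pandas 2.3.3 (checked on simulated lists), and genes were taken from RefSeq tables for GRCm38.p6. Positions count from 1. Members and gene lists were chosen with earlier results of these data known. Named regions were the 12 of highest mean percentile, the 5 farthest, the 10 genes with most members, up to 3 per list, up to 12 that stayed with equal lists, those at the 1 kb limit, the 3 nearest to a wild-type peak, and Atoh7. Some regions that this rule takes are not reported here. Other regions named were chosen after their values were seen. Motif shares over whole members, planned for the case that a genome was at hand, were not run. No test was made.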

Additional observations from a re-analysis of the deposited data

How the results depend on the processing

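Numbers of members and wild-type-only regions kept within 1.5 times under merging within 100 bp, whole regions outside genes and X and Y added. Under these settings the members' share of regions between genes stayed within 10.0% to 11.0%. Their median distance to a gene end stayed within 31245 to 40136 bp. Both intervals were taken over regions, which are not replicates, and give no spread between libraries. The median percentile stayed within 13.8 to 24.8, the main value plus or minus the SD between SE/SE libraries. No value changed direction. With lists of equal length by signal value, SE/SE-only regions between genes fell to 173 (1.93%), of which 37 were members, and wild-type-only regions rose to 48. The 173 had a median distance of 54704 bp and a median percentile of 39.6. With equal lists by −log10 p, an alternative added after seeing the data, the values were 132, 1.47%, 43, 48345 bp and 40.1. Here 19 of the members stayed, 5 of them among the 12 highest. Signal values of 40 or more gave a share of 11.9%, 4 wild-type-only regions and a median percentile of 27.2. This cutoff left 1560 SE/SE-only regions between genes and kept 772 of the members (47.8%). A peak over 50% or more of the region gave a share of 12.3%. Gene ends 5 kb away moved the median distance to 48456.5 bp, and all annotated genes to 12816 bp. Leaving out 1 library gave 1658 to 2937 SE/SE-only regions between genes, 10.8% to 19.2% and 12 to 26 wild-type-only regions. There were 2937 SE/SE-only regions without wild type 2 and 2838 without SE/SE 1. Without both wild type 2 and SE/SE 1, also added after seeing the data, there were 4394 SE/SE-only regions (29.0%) and 33 wild-type-only regions. The cause of these shifts was not tested, beyond fewer peaks or libraries entering. The planned motif alternatives were not run. No paired analysis was possible because the results come from no test and the replicate numbers name different animals. Depth is unknown, so the absence of a wild-type peak is absence from a list and not of accessibility.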
